A study of Mus musculus with 18 samples.

Results

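The collagen chain genes outside the cartilage set were described in whole mouse embryos at E11.5. They are the 38 genes whose symbol is Col followed by a type number, the letter a and a chain number, after Col2a1, Col9a1, Col9a2, Col9a3, Col11a1 and Col11a2 were left out. These 38 were among 44 collagen chain genes and 34244 genes with a symbol in the deposited table. The rule used the symbols alone and no measured value, and it was proposed with earlier results of these data known. RNA was sequenced from 9 FVB embryos, 3 of each of 3 genotypes, with 1 library per embryo. Dnmt3b+/+ embryos carried both normal copies of the DNA methyltransferase gene Dnmt3b. Embryos labelled Dnmt3b-/- carried a conventional null allele derived from a floxed allele, and Dnmt3bCI/CI embryos carried amino acid substitutions, knocked in by CRISPR/Cas9 within exon 19, that inactivate catalysis. Both alleles were inherited through the germ line, the founders of the Dnmt3bCI line were not told apart, and sex and litter were not given. The values are FPKM, the reads on a gene per kilobase of its length and per unit of library depth, so levels of different genes are compared here per length.

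Collagens are trimeric proteins of the extracellular matrix, and each chain gene encodes one of the polypeptides that wind into the triple helix. Fibrillar collagens form the tensile fibrils of connective tissue, FACIT collagens decorate those fibrils, type VI forms beaded filaments around cells, and type VIII forms hexagonal networks. Type IV builds the sheet of every basement membrane, including those of blood vessels and epithelia, and types XV and XVIII are proteoglycans of the basement membrane zone. Chain genes of 1 trimer often lie side by side, and the type IV genes lie head to head in pairs.

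Library totals, estimated from the low values of the table, ranged from 38451729 to 49808777 reads, and 3 reads or fewer in each library of a group were treated as the floor of detection. The targeted gene Dnmt3b had 2.25, 1.62 and 2.04 FPKM in Dnmt3b+/+, 2.45, 3.12 and 3.33 FPKM under the Dnmt3b-/- label and 2.06, 1.98 and 2.32 FPKM in Dnmt3bCI/CI. It was thus higher, not lower, in the libraries labelled Dnmt3b-/- (log2 difference 0.57, SE 0.15, limma adjusted p = 0.0248). The table holds 1 value for the whole gene, which does not check a label when an allele lacks some of the exons, and these embryos are named by their label throughout. The study used yolk sac DNA for genotyping and shows an immunoblot of Dnmt3b protein in E11.5 embryos of these genotypes. Embryo 1 of that label lay nearest to Dnmt3b+/+ over all genes tested, at a mean Euclidean distance of 75.5 log2 units against 91.0 and 93.9 for embryos 2 and 3. Among the Dnmt3b+/+ embryos, embryo 2 lay farthest from the others of its genotype, at a mean distance of 71.7. For Dnmt3b+/+ embryos 1 and 3 this distance was 63.2 and 54.3.

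Promoters are shown for the members of types I, III, V, VI and VIII that have a window and a Dnmt3b+/+ mean over 1 FPKM, and for Col18a1, because Dnmt3b methylates cytosine in CpG dinucleotides and the members differed widely in how many CpGs they carry. RefSeq windows of GRCm38.p6 were found for 31 of the 38 members. Col1a1, Col4a3, Col5a2, Col12a1, Col14a1, Col22a1 and Col26a1 had none. The lines give, from 5′ to 3′ on the strand of the gene, the longest stretch of the 250 bases upstream of the start site that no annotated exon covers, with every CpG in capitals. For Col6a2 and Col18a1, which have 2 windows each, 1 is shown.
Col1a2, chr6:4505370-4505492, plus strand: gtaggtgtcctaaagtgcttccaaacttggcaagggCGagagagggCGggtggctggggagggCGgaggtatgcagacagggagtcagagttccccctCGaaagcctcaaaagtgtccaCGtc
Col3a1, chr1:45311288-45311537, plus strand: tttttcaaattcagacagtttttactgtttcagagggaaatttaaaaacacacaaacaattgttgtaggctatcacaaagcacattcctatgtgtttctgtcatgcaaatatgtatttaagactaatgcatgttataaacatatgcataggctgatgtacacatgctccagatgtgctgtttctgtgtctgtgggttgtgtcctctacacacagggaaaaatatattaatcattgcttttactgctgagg
Col5a1, chr2:27886175-27886380, plus strand: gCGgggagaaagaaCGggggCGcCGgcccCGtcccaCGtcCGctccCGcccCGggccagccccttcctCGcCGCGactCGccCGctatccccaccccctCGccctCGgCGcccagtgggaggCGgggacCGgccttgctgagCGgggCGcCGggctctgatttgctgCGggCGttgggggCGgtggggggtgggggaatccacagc
Col6a1, chr10:76726169-76726294, minus strand: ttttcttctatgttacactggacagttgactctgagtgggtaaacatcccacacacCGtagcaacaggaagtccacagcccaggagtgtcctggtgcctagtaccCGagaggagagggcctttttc
Col6a2, chr10:76623631-76623880, minus strand: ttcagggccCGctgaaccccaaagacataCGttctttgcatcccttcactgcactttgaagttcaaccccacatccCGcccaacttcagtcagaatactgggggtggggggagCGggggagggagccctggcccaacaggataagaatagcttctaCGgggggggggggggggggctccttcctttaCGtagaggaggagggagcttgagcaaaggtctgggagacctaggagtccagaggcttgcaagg
Col6a3, chr1:90844002-90844221, minus strand: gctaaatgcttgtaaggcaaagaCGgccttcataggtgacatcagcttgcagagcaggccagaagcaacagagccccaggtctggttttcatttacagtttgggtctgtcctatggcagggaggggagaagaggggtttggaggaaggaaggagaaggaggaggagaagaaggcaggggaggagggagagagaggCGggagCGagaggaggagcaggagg
Col8a1, chr16:57754738-57754987, minus strand: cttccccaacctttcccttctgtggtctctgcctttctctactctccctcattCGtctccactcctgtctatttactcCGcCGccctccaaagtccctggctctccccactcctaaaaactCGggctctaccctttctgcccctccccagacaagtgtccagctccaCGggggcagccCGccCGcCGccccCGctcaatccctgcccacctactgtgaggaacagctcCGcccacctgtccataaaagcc
Col8a2, chr4:126286544-126286792, plus strand: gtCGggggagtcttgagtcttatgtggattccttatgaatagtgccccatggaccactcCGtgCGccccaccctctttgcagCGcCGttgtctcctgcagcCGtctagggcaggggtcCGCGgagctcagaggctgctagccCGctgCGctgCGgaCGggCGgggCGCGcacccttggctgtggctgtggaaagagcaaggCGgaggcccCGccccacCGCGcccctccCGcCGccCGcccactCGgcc
Col18a1, chr10:77166549-77166780, minus strand: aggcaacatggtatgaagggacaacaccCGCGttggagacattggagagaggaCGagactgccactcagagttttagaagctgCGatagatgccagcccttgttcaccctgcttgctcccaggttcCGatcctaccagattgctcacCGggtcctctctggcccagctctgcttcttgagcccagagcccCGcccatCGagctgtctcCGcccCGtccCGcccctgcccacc
Over the whole 250 bases, annotated exons included, the Col3a1 window held 0 CpGs and the Col5a1 window 28. These were the fewest and the most among the members that fell in embryos labelled Dnmt3b-/-. Windows of the 17 members that fell, of which Col6a2 has 2, held 0 to 28 CpGs with a median of 10. Windows of the 11 members that did not pass the test held 0 to 31 with a median of 10, and the median over all 32851 windows was 6. Methylation was not analysed here, and these counts describe the sequence alone.

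In the Dnmt3b+/+ embryos, 14 of the 38 members had a mean of at least 10 FPKM, 12 lay between 1 and 10, 9 between 0.1 and 1, and 3 below 0.1. Col1a1 and Col1a2, the chains of type I collagen, and Col3a1, the chain of type III, supplied 50.4% ± 0.439 (SD, n = 3) of the summed FPKM of all members. Col1a1 stood first at 163 ± 25.7 FPKM, Col3a1 next at 91.7 ± 4.32 FPKM and then Col1a2 at 69.0 ± 4.12 FPKM, and the ranges of these neighbours did not overlap. Col5a1, Col4a1 and Col4a2 followed at 44.3, 42.9 and 38.3 FPKM with overlapping ranges. Of the 37 pairs of neighbours in this order, 13 had separate ranges over the 3 embryos. At the bottom stood Col6a5, Col4a4 and Col4a3, with means of 0.0637, 0.0626 and 0.0104 FPKM. Col4a3 had 2 to 10 reads in any of the 9 libraries. These 3 genes were too low to test, which left 35 members in the comparisons.

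**Figure D1:**
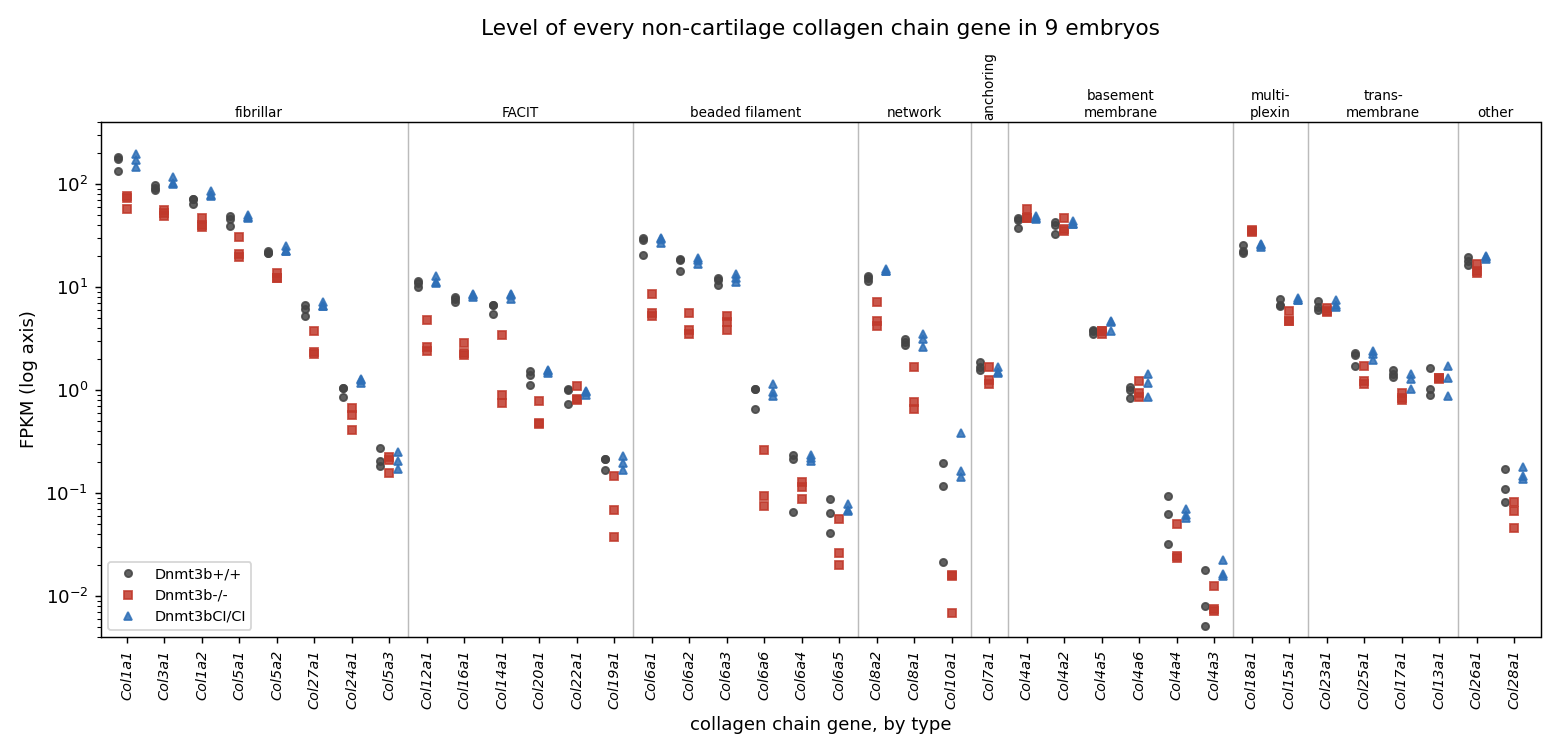
FPKM on a log axis for all 38 members, grouped by collagen type and ordered by their Dnmt3b+/+ mean, with 1 point per embryo (grey circles Dnmt3b+/+, red squares labelled Dnmt3b-/-, blue triangles Dnmt3bCI/CI). The red squares lie below both other groups for most fibrillar, FACIT, beaded filament and network genes, mix with them for the type IV genes Col4a1 and Col4a2, and lie above them for Col18a1.

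The first comparison asked how the members differed between embryos labelled Dnmt3b-/- and Dnmt3b+/+. Members were mostly lower in the former. Called at 2-fold or more with a limma adjusted p (Benjamini-Hochberg) under 0.05, 12 of the 35 tested members (34.3%) fell, against 3.38% of the 19397 genes tested, and 0 rose, against 1.07%. At adjusted p alone, 21 of the 35 fell against 16.4% of all genes, and 1, Col18a1, rose against 9.41%. Col18a1 was also the 1 member with a higher level at an unadjusted p under 0.05, against 14.6% of all genes. All 3 embryos labelled Dnmt3b-/- lay below all 3 Dnmt3b+/+ embryos for 22 members against 23.8% of all genes, and above them for 1 member against 15.1%. The median log2 difference of the members was −0.73, from −2.14 to 0.60, against −0.07 over all genes tested. With a pseudocount of 1 FPKM the median of the members was −0.39. In RNA from whole embryos, fewer cells of a type and less RNA per cell cannot be told apart.

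**Figure D2:**
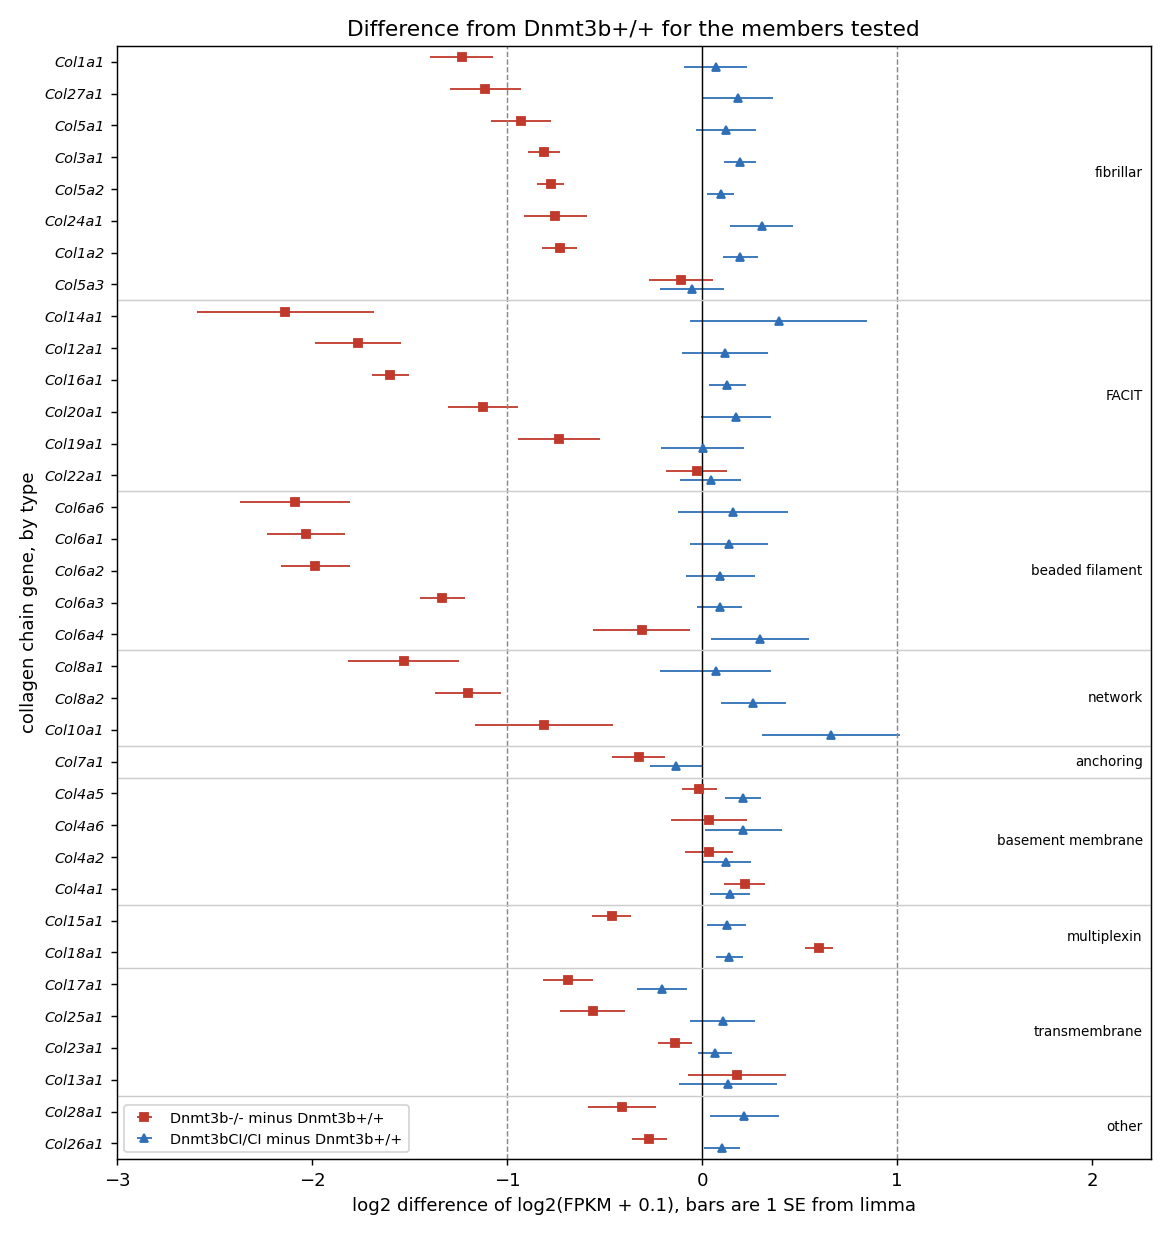
Difference in log2(FPKM + 0.1) from Dnmt3b+/+ for the 35 members tested, by collagen type, with red squares for embryos labelled Dnmt3b-/- and blue triangles for Dnmt3bCI/CI, bars of 1 SE from limma, and dashed lines at a fold change of 2. The red squares reach from −2.14 for Col14a1 to 0.60 for Col18a1, while 32 of the 35 blue triangles lie above 0 and none passed the test.

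Among the 8 fibrillar genes, 7 fell at adjusted p and 2 of these by at least 2-fold. Col1a1 had 134, 182 and 173 FPKM in Dnmt3b+/+, 73.6, 57.5 and 76.7 in embryos labelled Dnmt3b-/- and 197, 147 and 169 in Dnmt3bCI/CI. The groups with and without the null label did not overlap, and the log2 difference was −1.23 (SE 0.16, limma adjusted p = 0.00203). Col1a2, its partner in the type I trimer, had 64.3, 71.1 and 71.7 FPKM in Dnmt3b+/+, 47.1, 38.1 and 39.9 in embryos labelled Dnmt3b-/- and 84.2, 76.1 and 77.0 in Dnmt3bCI/CI. Its drop was smaller, at −0.73 (SE 0.09, limma adjusted p = 0.00156). The ratio of Col1a1 to Col1a2 was 2.35 ± 0.247 in Dnmt3b+/+, 1.66 ± 0.224 in embryos labelled Dnmt3b-/- and 2.15 ± 0.208 in Dnmt3bCI/CI (SD, n = 3), and the first of these groups did not overlap the second. An exact permutation test, two-sided, of such a ratio cannot go below p = 0.1 in groups of 3, and this was the value here.

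Col3a1, whose homotrimers form fibrils with type I, had 87.8, 90.9 and 96.3 FPKM in Dnmt3b+/+, 55.5, 48.7 and 52.5 in embryos labelled Dnmt3b-/- and 115, 98.6 and 101 in Dnmt3bCI/CI. It fell by 0.81 on the log2 scale (SE 0.08, limma adjusted p = 0.000592). Col5a1 and Col5a2 encode type V, which is known to start and limit the thickness of type I fibrils. Col5a1 had 39.1, 45.6 and 48.2 FPKM in Dnmt3b+/+, 30.3, 19.7 and 20.8 in embryos labelled Dnmt3b-/- and 49.9, 47.0 and 47.6 in Dnmt3bCI/CI, and fell by 0.93 (SE 0.15). Col5a2 had 21.5, 21.1 and 22.5 FPKM, 13.7, 12.1 and 12.2 FPKM, and 25.1, 22.3 and 22.3 FPKM in the same order, and fell by 0.78 (SE 0.07). For both type V genes embryos labelled Dnmt3b-/- lay below every other embryo. Col5a1 passed the 2-fold threshold when Dnmt3b+/+ embryo 1 or embryo 1 labelled Dnmt3b-/- was left out. Col5a3, another chain of type V, had 0.181, 0.203 and 0.273 FPKM in Dnmt3b+/+, 0.221, 0.211 and 0.156 under the Dnmt3b-/- label and 0.170, 0.204 and 0.248 in Dnmt3bCI/CI. These groups overlapped, and it did not pass the test (−0.11, SE 0.17). Col27a1, a fibrillar collagen of developing cartilage, had 6.05, 5.16 and 6.63 FPKM in Dnmt3b+/+, 3.73, 2.34 and 2.21 in embryos labelled Dnmt3b-/- and 6.57, 7.07 and 6.57 in Dnmt3bCI/CI. Its log2 difference of −1.11 (SE 0.18) came to −0.98 without embryo 3 labelled Dnmt3b-/- and −0.90 with a pseudocount of 1 FPKM, both short of 2-fold. Col24a1 had 1.05, 0.851 and 1.04 FPKM, 0.668, 0.404 and 0.573 FPKM, and 1.29, 1.25 and 1.16 FPKM in the 3 genotypes, and fell by 0.75 (SE 0.16).

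Type VI genes fell furthest as a group, with 4 of 5 tested members at least 2-fold lower and a median log2 difference of −1.98. Col6a1 had 20.5, 30.1 and 28.4 FPKM in Dnmt3b+/+, 8.59, 5.54 and 5.19 in embryos labelled Dnmt3b-/- and 30.1, 26.9 and 28.9 in Dnmt3bCI/CI. Col6a2 had 14.1, 18.6 and 18.3 FPKM, 5.63, 3.81 and 3.45 FPKM, and 18.3, 16.8 and 19.1 FPKM in that order. These 2 chains of the type VI trimer fell by 2.03 (SE 0.20, limma adjusted p = 0.000571) and 1.98 (SE 0.18, limma adjusted p = 0.000389) on the log2 scale, and the lowest of the other 6 embryos stood well above the highest of the 3 for each. Their genes lie 85161 bases apart on chromosome 10 of GRCm38 in the same orientation, and the ratio of Col6a1 to Col6a2 was 1.54 ± 0.0826 in Dnmt3b+/+ and 1.49 ± 0.0358 in embryos labelled Dnmt3b-/- (SD, n = 3), with overlapping groups.

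The remaining chain of the classical type VI trimer, Col6a3, on chromosome 1, had 10.3, 12.3 and 11.8 FPKM in Dnmt3b+/+, 5.18, 3.84 and 4.53 in embryos labelled Dnmt3b-/- and 13.3, 11.2 and 12.1 in Dnmt3bCI/CI. It fell less, by 1.33 (SE 0.12, limma adjusted p = 0.000367). The ratio of Col6a3 to Col6a1 was 0.442 ± 0.0534 in Dnmt3b+/+ and 0.723 ± 0.137 in embryos labelled Dnmt3b-/- (SD, n = 3), without overlap, and 0.426 ± 0.0149 in Dnmt3bCI/CI. Col6a4, Col6a5 and Col6a6 encode chains that are known to stand in for Col6a3 and lie in a row on chromosome 9. Col6a6 had 0.648, 1.01 and 1.03 FPKM in Dnmt3b+/+, 0.260, 0.0744 and 0.0942 in embryos labelled Dnmt3b-/- and 1.15, 0.963 and 0.880 in Dnmt3bCI/CI. It fell by 2.09 (SE 0.28, limma adjusted p = 0.00231), and with a pseudocount of 1 FPKM by 0.73. Its neighbours had lower levels in Dnmt3b+/+. Col6a4 had 0.231, 0.0659 and 0.215 FPKM in Dnmt3b+/+, 0.0882, 0.113 and 0.127 in embryos labelled Dnmt3b-/- and 0.217, 0.203 and 0.235 in Dnmt3bCI/CI, and the first 2 groups overlapped. Col6a5, too low to test, had 0.0405, 0.0640 and 0.0867 FPKM, 0.0559, 0.0200 and 0.0262 FPKM, and 0.0781, 0.0687 and 0.0663 FPKM in that order.

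FACIT collagens, which bind to the surface of fibrils, came next, with 4 of 6 genes at least 2-fold lower, 5 lower at adjusted p and a median log2 difference of −1.36. Col14a1 had 5.47, 6.61 and 6.66 FPKM in Dnmt3b+/+, 3.44, 0.896 and 0.742 in embryos labelled Dnmt3b-/- and 8.59, 7.65 and 8.39 in Dnmt3bCI/CI. Its log2 difference had the largest SE of the members tested (−2.14, SE 0.45, limma adjusted p = 0.0122), with embryo 1 of that label far above embryos 2 and 3, and was −2.79 without embryo 1. Col12a1 had 9.95, 10.9 and 11.3 FPKM, 4.73, 2.61 and 2.36 FPKM, and 12.8, 11.2 and 11.02 FPKM in the 3 genotypes, and fell by 1.76 (SE 0.22, limma adjusted p = 0.00165). Col16a1 had 7.16, 7.58 and 7.88 FPKM, 2.84, 2.20 and 2.27 FPKM, and 8.52, 7.98 and 8.25 FPKM, with little spread within any genotype. Its difference of −1.60 (SE 0.09) had the smallest limma adjusted p of all members, 4.5e-05.

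Col20a1 had 1.13, 1.51 and 1.40 FPKM in Dnmt3b+/+, 0.777, 0.471 and 0.476 in embryos labelled Dnmt3b-/- and 1.47, 1.57 and 1.53 in Dnmt3bCI/CI. It fell by 1.12 (SE 0.18), just past the threshold, and by 0.91 after quantile normalization and 0.58 with a pseudocount of 1 FPKM, both short of it. Col19a1, at 0.197 ± 0.0271 FPKM in Dnmt3b+/+ (SD, n = 3), passed at adjusted p with a log2 difference of −0.73 (SE 0.21). The sixth FACIT gene, Col22a1, a collagen of tissue junctions, overlapped between the groups (−0.03, SE 0.15).

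Both chains of type VIII, Col8a1 and Col8a2, fell. Col8a2 had 11.3, 12.8 and 12.2 FPKM in Dnmt3b+/+, 7.15, 4.67 and 4.19 in embryos labelled Dnmt3b-/- and 14.2, 14.4 and 15.0 in Dnmt3bCI/CI, a log2 difference of −1.20 (SE 0.17, limma adjusted p = 0.00255) between the first 2. Col8a1 had 2.71, 2.89 and 3.15 FPKM, 1.66, 0.760 and 0.647 FPKM, and 3.09, 2.63 and 3.52 FPKM in that order, and fell by 1.53 (SE 0.28, limma adjusted p = 0.00758), or by 0.98 with a pseudocount of 1 FPKM, short of 2-fold. Embryo 1 labelled Dnmt3b-/- was again the highest of its group for both genes. Col10a1, the collagen of hypertrophic cartilage, was at the edge of detection, with 3, 18 and 24 reads in Dnmt3b+/+, 2, 0 and 2 reads in embryos labelled Dnmt3b-/- and 54, 22 and 17 reads in Dnmt3bCI/CI. The group labelled Dnmt3b-/- was thus at the floor, and the fitted size of this difference depends on the pseudocount. Against Dnmt3b+/+ it did not pass (limma adjusted p = 0.122), and it did so without Dnmt3b+/+ embryo 1.

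The 4 type IV genes tested differed little. None passed at adjusted p, against 16.4% of all genes lower and 9.41% higher, and with 4 genes this is near those shares. Their median log2 difference was 0.04, between −0.01 and 0.22. Col4a4 and Col4a3, too low to test, had means of 0.0324 and 0.0090 FPKM under the Dnmt3b-/- label. In Dnmt3b+/+ these means were 0.0626 and 0.0104 FPKM, with overlapping groups. Col4a1 had 37.7, 46.8 and 44.2 FPKM in Dnmt3b+/+, 57.1, 46.2 and 46.6 in embryos labelled Dnmt3b-/- and 46.6, 49.0 and 46.0 in Dnmt3bCI/CI, with a log2 difference of 0.22 (SE 0.10, limma adjusted p = 0.152). Col4a2 had 32.6, 42.7 and 39.7 FPKM, 46.3, 36.8 and 35.0 FPKM, and 40.4, 43.2 and 41.1 FPKM in that order, with a difference of 0.04 (SE 0.12, limma adjusted p = 0.845). The groups overlapped for both, and embryo 1 labelled Dnmt3b-/- was the highest of all 9. These genes start head to head on chromosome 8 of GRCm38, Col4a1 from 11312826 on the minus strand and Col4a2 from 11312805 on the plus strand, so their transcribed parts share 22 bases. Reads on those bases cannot be told apart, since the strand setting of the counting is not given in the sources used here. The ratio of Col4a1 to Col4a2 was 1.12 ± 0.0301 in Dnmt3b+/+, 1.27 ± 0.0520 in embryos labelled Dnmt3b-/- and 1.14 ± 0.0168 in Dnmt3bCI/CI (SD, n = 3). It was higher in each of the 3 embryos labelled Dnmt3b-/- than in any of the others.

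The ratio of Col4a1 to Col1a1 set the basement membrane against the fibril within each embryo, and was chosen after the values were seen, so it is given without a test. It was 0.265 ± 0.0148 in Dnmt3b+/+, 0.729 ± 0.106 in embryos labelled Dnmt3b-/- and 0.281 ± 0.0494 in Dnmt3bCI/CI (SD, n = 3), with no overlap between the second group and the others. Col4a5 and Col4a6, a second head-to-head pair on the X chromosome with 1308 bases between them, also overlapped between the groups, at log2 differences of −0.01 (SE 0.09) and 0.03 (SE 0.20).

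**Figure D3:**
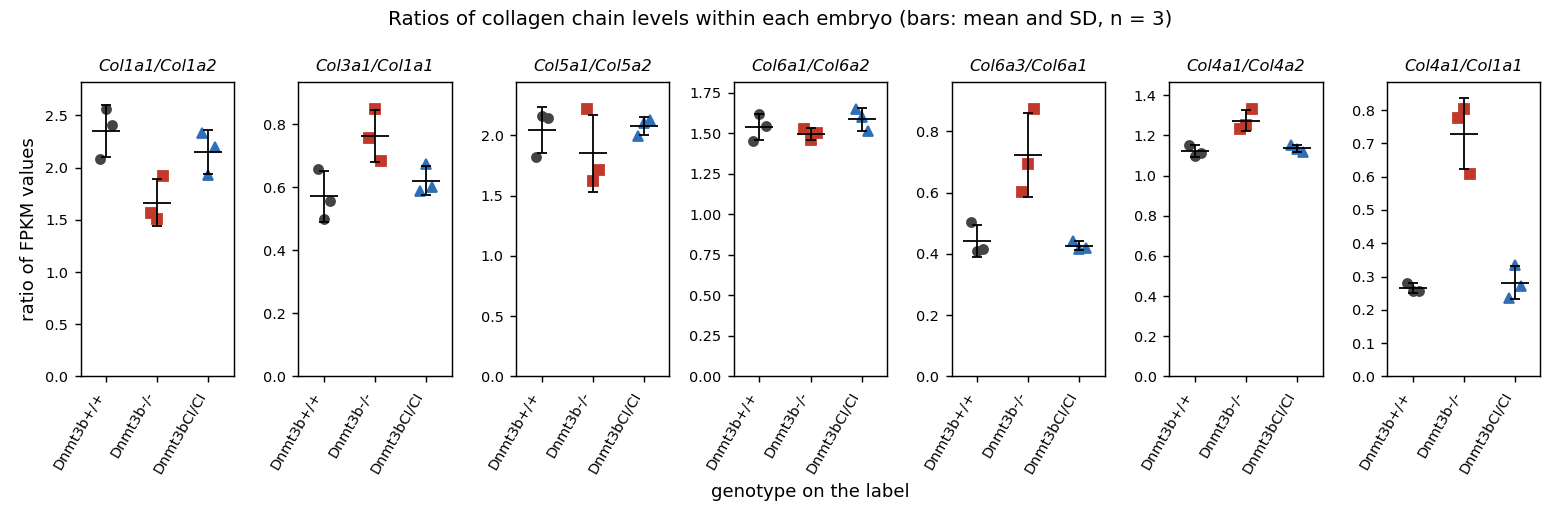
Ratio of the FPKM values of pairs of chains in each embryo for the 3 genotypes on the labels, with bars for the mean and SD of 3 embryos. Col1a1/Col1a2 fell from 2.35 to 1.66 and Col4a1/Col1a1 rose from 0.265 to 0.729 between Dnmt3b+/+ and embryos labelled Dnmt3b-/-, while Col6a1/Col6a2 and Col5a1/Col5a2 overlapped.

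The multiplexins moved in opposite directions. Col18a1, whose C-terminal fragment is endostatin, had 21.3, 22.3 and 25.3 FPKM in Dnmt3b+/+, 34.7, 35.9 and 33.7 in embryos labelled Dnmt3b-/- and 25.9, 25.7 and 24.1 in Dnmt3bCI/CI. The embryos labelled Dnmt3b-/- lay above all 6 others, with a log2 difference from Dnmt3b+/+ of 0.60 (SE 0.07, limma adjusted p = 0.0012). Col18a1 lies 326009 bases from Col6a1 on chromosome 10, on the same strand, and the 2 genes changed in opposite directions. RefSeq gives Col18a1 windows at 2 start sites, with 3 and 12 CpGs in the 250 bases upstream, and the deposited value does not separate transcripts from them. Col15a1 fell, from 6.93 ± 0.578 FPKM in Dnmt3b+/+ to 5.02 ± 0.699 FPKM in embryos labelled Dnmt3b-/- (SD, n = 3; log2 difference −0.46, SE 0.10, limma adjusted p = 0.0128).

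Among the 4 transmembrane collagens, Col17a1 of the epithelial hemidesmosome and Col25a1 fell at adjusted p, by 0.69 (SE 0.13) and 0.56 (SE 0.17), although the groups overlapped for Col25a1. Col13a1 (0.18, SE 0.25) and Col23a1 (−0.14, SE 0.09) did not pass. Col7a1, the anchoring fibril collagen beneath epithelia, had a log2 difference of −0.32 (SE 0.14, limma adjusted p = 0.111). Col26a1, with 16.3, 17.9 and 19.6 FPKM in Dnmt3b+/+, 16.7, 14.2 and 13.7 in embryos labelled Dnmt3b-/- and 18.4, 19.4 and 19.8 in Dnmt3bCI/CI, came close to the threshold (−0.27, SE 0.09, limma adjusted p = 0.0588). Col28a1 had 0.121 ± 0.0460 FPKM in Dnmt3b+/+ and 0.0647 ± 0.0184 under the Dnmt3b-/- label (SD, n = 3) and did not pass (limma adjusted p = 0.118).

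Summed over each type, fibrillar FPKM went from 397 ± 37.4 in Dnmt3b+/+ to 203 ± 22.9 in embryos labelled Dnmt3b-/- (SD, n = 3), 51.2% of the Dnmt3b+/+ mean. Beaded filament genes came to 27.8% of that mean, FACIT genes to 33.1% and network genes to 42.2%, and in each of these types all 3 embryos lay below all 3 Dnmt3b+/+ embryos. Transmembrane genes came to 84.4%, also below all 3 Dnmt3b+/+ embryos. Type IV genes came to 109% with overlapping groups, and the multiplexins to 133% without overlap. All members together fell from 641 ± 61.4 to 393 ± 44.2 FPKM, and Dnmt3bCI/CI embryos had 703 ± 42.9 FPKM. The mixture therefore differed. Type IV genes made up 13.4% ± 0.512 of the members' summed FPKM in Dnmt3b+/+, 23.9% ± 0.917 in embryos labelled Dnmt3b-/- and 13.5% ± 1.16 in Dnmt3bCI/CI (SD, n = 3).

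**Figure D4:**
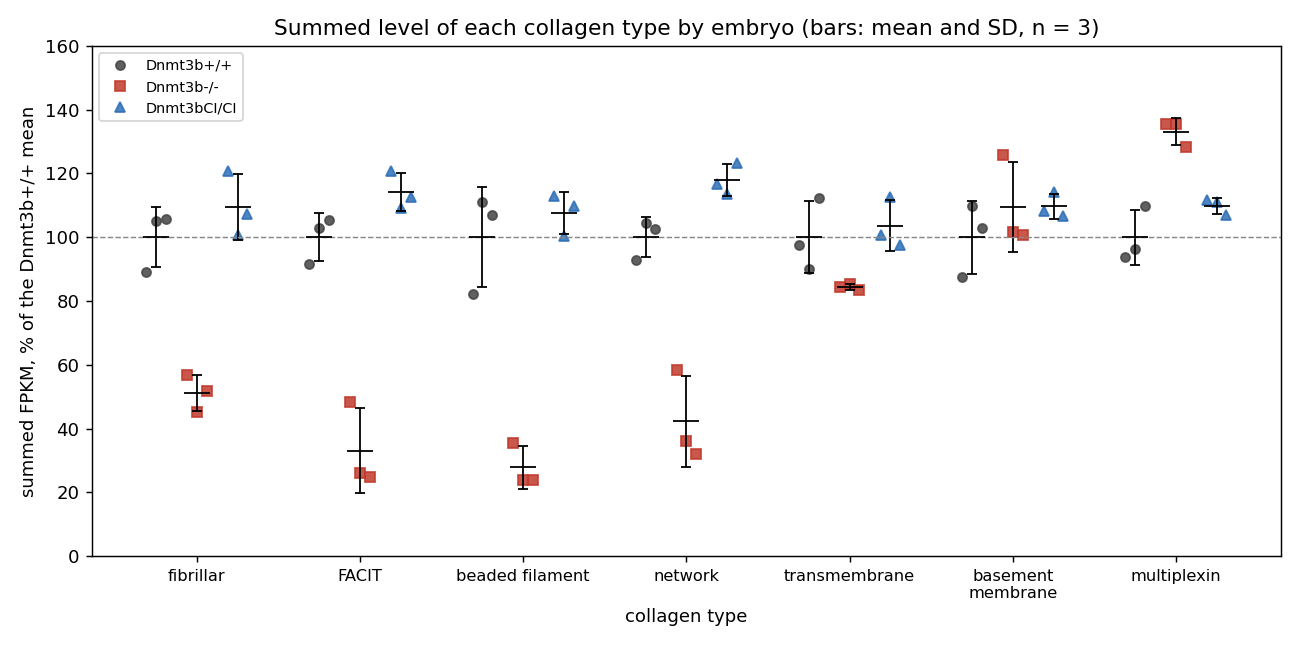
Summed FPKM of each collagen type in every embryo as a percentage of the Dnmt3b+/+ mean, with bars for the mean and SD of 3 embryos per genotype; the single anchoring fibril gene and the 2 other genes are not drawn. The embryos labelled Dnmt3b-/- average 51.2% for fibrillar, 33.1% for FACIT, 27.8% for beaded filament and 42.2% for network genes. Their averages are 84.4% for transmembrane, 109% for basement membrane and 133% for multiplexin genes.

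Within the group labelled Dnmt3b-/-, embryo 1 was the highest of the 3 for 19 of the 21 members that fell (90.5%), against 70.2% of the 3175 genes that fell at adjusted p and 47.6% of all genes tested. Without embryo 1, 13 members fell at least 2-fold, the 12 above and Col5a1.

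The second comparison set Dnmt3bCI/CI against Dnmt3b+/+, the genotypes in which a Dnmt3b protein is made with and without catalytic activity. At adjusted p and 2-fold, 0 members were lower, against 0% of all genes, and 0 were higher, against 0.129%. At an unadjusted p under 0.05, 2 members were higher, Col3a1 (0.20, SE 0.08) and Col4a5 (0.21, SE 0.09), against 2.70% of all genes, and none was lower. Differences were small and mostly of 1 sign, with 32 members above 0 and 3 below, and a median of 0.13 against 0.02 over all genes, where 55.7% were above 0. Without Dnmt3b+/+ embryo 1 the median of the members was 0.06. The Dnmt3bCI/CI values exceeded every Dnmt3b+/+ value for 6 members, Col1a2, Col3a1, Col8a2, Col14a1, Col16a1 and Col24a1, against 7.53% of all genes. None of these 6 passed at adjusted p, and the ratios of partner chains overlapped between these genotypes in every pair compared. Without Dnmt3b+/+ embryo 1 the difference turned from positive to negative for 6 members, Col1a1, Col6a1, Col6a2, Col6a6, Col13a1 and Col22a1, and leaving out any other single embryo turned the sign of 1 to 3 members.

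The last comparison set embryos labelled Dnmt3b-/- against Dnmt3bCI/CI. At adjusted p and 2-fold, 16 members (45.7%) were lower, against 4.32% of all genes, and 0 higher, against 1.1%. At adjusted p alone, 24 (68.6%) were lower against 18.2%, and Col18a1 was higher (0.46, SE 0.07) against 9.7%, the 1 member also higher at an unadjusted p under 0.05, against 15.0% of all genes. All 3 embryos labelled Dnmt3b-/- lay below all 3 Dnmt3bCI/CI embryos for 26 members against 29.5% of all genes. This comparison and the first share embryos labelled Dnmt3b-/-, and their calls are not independent of each other. The 16 were the 12 of the first comparison with Col3a1 (−1.01, SE 0.08), Col5a1 (−1.05, SE 0.15), Col24a1 (−1.06, SE 0.16) and Col10a1, which rests on few reads. The first 3 of these stood close to the 2-fold threshold, at which leaving out a single embryo ended the call of each. On the log2(FPKM + 0.1) scale, which understates changes of low genes, 4 members differed by more than 2, Col14a1 (−2.53, SE 0.45, and −3.18 without embryo 1 labelled Dnmt3b-/-), Col6a6 (−2.24, SE 0.28), Col6a1 (−2.17, SE 0.20) and Col6a2 (−2.08, SE 0.18). With a pseudocount of 1 FPKM the calls of Col6a6 (−0.81), Col20a1 (−0.69), Col24a1 (−0.53), Col10a1 (−0.27) and Col3a1 (−0.99) were lost. None of the 4 type IV genes tested passed at adjusted p, against 18.2% of all genes lower, and their median was −0.13. With 4 genes this count is near that share. For Col4a3 and Col4a4, too low to test, all 3 embryos labelled Dnmt3b-/- lay below all 3 Dnmt3bCI/CI embryos.

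Lists of genes that make, process and bind collagen, 75 genes in all of which 74 were found and 69 tested, were counted in the same model. In embryos labelled Dnmt3b-/-, 6 of the 69 fell at least 2-fold against Dnmt3b+/+ (all genes tested, 3.38%), 39 fell at adjusted p (all genes, 16.4%), and 1, Lama1, a laminin chain of early basement membranes, rose at adjusted p (all genes, 9.41%). The median log2 difference of the 7 lists lay between −0.61 and −0.28, against −0.07 over all genes. Of the 6, Lox cross-links fibrils and went from 10.1 ± 1.65 to 2.64 ± 0.575 FPKM (SD, n = 3). Adamts2 and Adamts14 remove the N-terminal propeptides of fibrillar procollagens, and Adamts2 went from 2.27 ± 0.315 to 0.656 ± 0.0641 FPKM. Creb3l1 drives collagen secretion in bone, Itga11 is a receptor subunit for type I collagen, and Mmp9 degrades type IV. Of 19 genes for chain modification and folding, 11 fell at adjusted p and none 2-fold, and the collagen chaperone Serpinh1 differed little (186 ± 9.66 against 183 ± 13.7 FPKM). Against the same 16.4%, counts lower at adjusted p were 4 of 6 for secretion, 6 of 8 for propeptide removal, 4 of 6 for cross-linking, 4 of 8 for receptors, 7 of 15 for basement membrane partners, and 3 of 7 for collagenases and their inhibitors. In Dnmt3bCI/CI none of the 69 passed against Dnmt3b+/+. The 6 cartilage collagens left out fell at adjusted p, 4 of them 2-fold, and their summed level ranged from 74.7 to 130 FPKM in embryos labelled Dnmt3b-/-, 158 to 243 in Dnmt3b+/+ and 237 to 255 in Dnmt3bCI/CI.

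Markers of some tissues were lower in the same embryos and those of others were not, and their part in the results was not tested. The counts below stand against 16.4% of all genes lower and 9.41% higher at adjusted p, and 3.38% lower by 2-fold, and with lists this short a count of 1 is near those shares. All 8 cartilage markers fell at adjusted p in embryos labelled Dnmt3b-/-, 4 of them 2-fold, and their sum ranged from 23.9 to 29.5 FPKM against 40.1 to 51.6 in Dnmt3b+/+ and 47.3 to 53.2 in Dnmt3bCI/CI. Of 6 osteoblast markers 5 fell, 2 of them 2-fold, with sums of 3.67 to 4.03 FPKM against 6.93 to 7.09 in Dnmt3b+/+ and 5.87 to 7.80 in Dnmt3bCI/CI. Of 3 tendon markers, Tnmd fell, and the sums overlapped (10.05 to 18.7 against 17.0 to 19.8 FPKM). Of 5 markers of mesenchyme, Pdgfra fell and Twist1 rose, with a list median of −0.09. The sum was higher, at 128 to 137 against 101 to 117 FPKM in Dnmt3b+/+, through Twist1, at 87.7 to 94.1 against 57.5 to 64.2 FPKM, while the other 4 summed to 40.7 to 43.0 against 43.4 to 52.6 FPKM. Of 5 endothelial markers 0 passed at adjusted p, and their sum, 24.6 to 26.3 FPKM, lay within the Dnmt3b+/+ range of 24.4 to 27.3. In Dnmt3bCI/CI the endothelial sum was 28.6 to 30.3 FPKM, above both other genotypes. Pecam1 and Cdh5 were lower under the Dnmt3b-/- label than in Dnmt3bCI/CI at adjusted p (all genes, 18.2%). Of 7 markers of surface ectoderm 3 fell, of 5 of skeletal muscle 3 (sum 73.6 to 95.9 against 96.4 to 192 FPKM), of 5 of Schwann cells and neural crest 1, and of 4 of neurons 0. Of 3 tested markers of parietal yolk sac and trophoblast, Sparc and Lamb1 fell, and Prl3d1 and Prl2c2 were too low to test. Afp, the other tested marker, had a log2 difference of 1.69 (SE 1.92) and did not pass (limma adjusted p = 0.549). It varied widely within Dnmt3b+/+, with 0.119 FPKM in embryo 2 against 93.3 and 52.0 in embryos 1 and 3. The erythroid gene Hba-x rose, with sums of 4 erythroid markers of 1666 to 5196 FPKM against 1302 to 2018 in Dnmt3b+/+, and of 4 macrophage markers Adgre1 fell and Cd68 rose.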

How the data were processed

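Total RNA of 9 whole embryos was sequenced as paired-end reads. The authors used STAR and mm10 for alignment after trimming, required a mapping quality of at least 50, and quantified genes in SeqMonk. They deposited 1 table of FPKM on the linear scale, with 1 column per embryo. The annotation release and strand setting are not given in the sources used here. A gene without reads holds a small value in place of 0, worth 0.9 reads, and 89.5% of values above it and under 30 reads were whole reads within 0.05 when taken with GENCODE M21 exon lengths, which gave the library totals. Precision is limited by 3 embryos per genotype.

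Of 34245 rows, 1 without a symbol was left out, and 80 that repeat an identifier were kept as rows, though lists count each gene once. Genes reaching 0.1 FPKM in 3 or more of the 9 embryos (19397) were tested on log2(FPKM + 0.1), which understates changes of low genes, with limma 3.58.1 in R 4.3.3, in 1 model of 3 genotypes with a variance trend, and p-values were adjusted by Benjamini-Hochberg over all genes. Ratios were tested by two-sided exact permutation. Sums and ratios were computed in python 3.11.15 (numpy 2.4.6, pandas 2.3.3), and the model was tested on simulated data. Group values are means ± SD. Per-embryo values are given for members called in any comparison, for the 12 highest in Dnmt3b+/+ and for their trimer partners, and other members by range or difference. Members, collagen types, pathway lists and 12 marker lists were chosen with earlier results of these data known. The p-values are over separate embryos. Coordinates are of GRCm38 (GENCODE M21), and promoters are RefSeq windows of GRCm38.p6. Alternatives were other pseudocounts, filters, scalings, embryo sets, variance models and thresholds, a block for embryo number, and leaving out each embryo. Bisulfite libraries and lymphoma cells were not analysed here.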

Additional observations from a re-analysis of the deposited data

How the results depend on the processing

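With adjusted p and no fold threshold, embryos labelled Dnmt3b-/- had 21 members lower and 1 higher than Dnmt3b+/+, against 12 and 0 with it, and 24 lower and 1 higher than Dnmt3bCI/CI, against 16 and 0. Other settings kept the counts within 1.5 times. Members lower than in Dnmt3b+/+ numbered 8 with a pseudocount of 1 FPKM, which ended the calls of Col6a6, Col8a1, Col20a1 and Col27a1, and 11 to 14 when single embryos were left out. Members lower than in Dnmt3bCI/CI numbered 11 with that pseudocount, which ended the calls of Col3a1, Col6a6, Col10a1, Col20a1 and Col24a1, and 12 to 17 when single embryos were left out. The median log2 difference of the members from Dnmt3b+/+ went from −0.73 to −0.39 with that pseudocount and to −0.55 after quantile normalization, and from Dnmt3bCI/CI it went from −0.87 to −0.51 with that pseudocount and to −0.70 with no filter on low values. The median between Dnmt3bCI/CI and Dnmt3b+/+ went from 0.13 to 0.06 without Dnmt3b+/+ embryo 1. No setting called a member between Dnmt3bCI/CI and Dnmt3b+/+. Quantile normalization shifted the log2 differences of single genes by a median of 0.13 and 0.16 in the comparisons with embryos labelled Dnmt3b-/-. It exchanged Col20a1 for Col5a1 in the first and Col24a1 for Col1a2 in the other. The causes were not tested. Embryo numbers are shared by the genotypes but did not pair the embryos, with a mean correlation of −0.0865 for equal numbers and 0.0478 for others. With a replicate block, 12, 0 and 16 members were lower in the 3 comparisons and 0 higher, the same genes as without it. Members under about 0.1 FPKM are limited by depth.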
